A study of Mus musculus with 6 samples.

Results

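The sites described here are 1008 places in the mouse genome where a Smad3 binding peak and a Nanog binding peak had their summits close together. A pair was formed when the Smad3 summit and the Nanog summit were each other's nearest summit and lay at most 200 bp apart, on chromosomes 1 to 19. The pairs took up 1008 of the 1199 Smad3 peaks and 1008 of the 16833 Nanog peaks on these chromosomes. No tag count entered the rule. The peaks were mapped by ChIP-seq, the sequencing of DNA precipitated with a bound protein, in mouse J1 embryonic stem cells that carried BirA, a bacterial enzyme that biotinylates a tagged protein, and that were grown in serum with leukemia inhibitory factor. Smad3 was precipitated with an antibody to Smad3, and Nanog with streptavidin beads, which the series design calls bioChIP-seq. Both groups shared cell line, BirA and medium, and the labels list no added ligand or inhibitor. Each of the 5 factors of the study (Smad3, Nanog, Tgif1, Tgif2 and Hdac1) had 1 library and 1 peak list, so no value below has a replicate check, and the mock control was not analysed here.

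Smad3 is a signal-activated DNA-binding protein: the Activin, Nodal and TGF-beta receptors phosphorylate it, and it then enters the nucleus with Smad4. Its own contact with DNA is weak and short, so where it settles depends on partner factors already at the site. Nanog is a homeodomain factor that, with Oct4 and Sox2, holds embryonic stem cells in the pluripotent state. Both act in embryonic stem cells mostly at distal enhancers. Tgif1 and Tgif2 are homeodomain corepressors that bind Smad proteins, and Hdac1 is a histone deacetylase found in several corepressor complexes.

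The 2 lists differed in size and strength. A tag is 1 sequenced fragment end, and the authors' tag count of a peak is not divided by library depth or by peak width. On chromosomes 1 to 19 the Smad3 list held 42445 tags in all, with a minimum of 11 and a median of 26 tags in a peak, and the Nanog list held 802659, with a minimum of 16 and a median of 29. The authors' fold enrichment, the ratio of a peak to its background, had a median of 9.55 and a maximum of 37.5 for Smad3, against a median of 23.4 and a maximum of 844 for Nanog. The sources used here do not state how deeply each library was sequenced, so tags of Smad3 and of Nanog are compared by rank and not by size. The precipitation method also differed between the 2 lists, so factor and method cannot be told apart in their tags, fold or width. Intervals in brackets are 95% Wilson intervals for shares and order-statistic intervals for medians. They cover counting error over peaks only, and peaks of 1 library are not replicates.

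Most Smad3 peaks had a Nanog partner, whereas few Nanog peaks had a Smad3 partner. The paired share was 84.1% of Smad3 peaks (81.9 to 86.0), against 5.99% of Nanog peaks (5.64 to 6.36). By chromosome, the paired share of Smad3 peaks ran from 73.9% on chromosome 18 to 92.6% on chromosome 13. Of the 191 Smad3 peaks without a partner, 76 overlapped a Nanog peak whose summit lay farther than 200 bp away and 115 overlapped none. The share of Smad3 peaks with a partner was 70.5% (64.5 to 75.9) among those with 11 to 17 tags. It was 87.0% (82.3 to 90.7) among those with 18 to 23 tags, 89.5% (84.7 to 92.9) with 24 to 30 tags, 89.6% (85.1 to 92.8) with 31 to 44 tags and 84.2% (79.0 to 88.2) with 45 tags or more. The Smad3 peaks with the fewest tags were therefore paired less often, with an interval below those of the other 4 bins.

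The Smad3 peak with the most tags in the list was not a member. It lay at chr15:74915638-74917773 in mm9 coordinates, held 1141 tags at a fold of only 5.08, and had its nearest Nanog summit 130651 bp away. Another unpaired Smad3 peak, at chr8:66164700-66164970, held 309 tags in a width of 270 bp, at 7.93-fold, with the nearest Nanog summit 143243 bp away. Both were picked out after their values were seen. The 115 Smad3 peaks without any Nanog overlap had a median of 17 tags, against 31 tags in the 76 that overlapped Nanog with a distant summit.

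Within pairs the summits lay much nearer than the limit. The median distance was 31 bp (29 to 35), with quartiles at 14 and 59 bp. Summits were at most 10 bp apart in 187 pairs, at most 50 bp apart in 700 pairs, which is 69.4%, and at most 100 bp apart in 917 pairs. At the same base lay 14 pairs. The Smad3 summit had the higher coordinate in 521 pairs and the lower coordinate in 473, with a median offset of 3 bp (-1 to 5), so no shift to one side was seen. In all 1008 pairs the peaks overlapped and each summit lay inside the other factor's peak. The rule did not ask for this, but its limit of 200 bp is short beside the peaks. Their median widths were 702.5 bp for Smad3 and 927.5 bp for Nanog, so both outcomes were likely by construction.

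**Figure D1:**
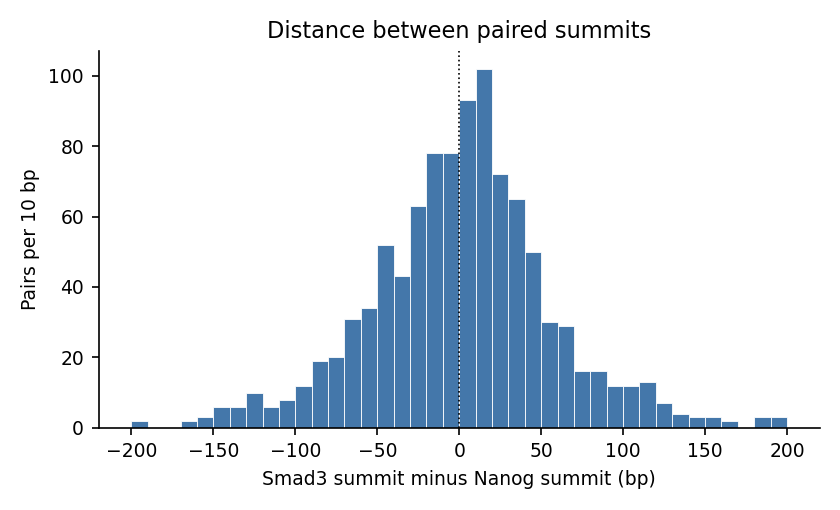
The plot shows the number of pairs per 10 bp (vertical axis) against the Smad3 summit position minus the Nanog summit position in bp (horizontal axis), for all 1008 pairs. The bars pile up around 0, with a median distance of 31 bp, and thin out well before the limit of 200 bp.

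The limit cut through a thin tail. Between 150 and 200 bp there were 18 pairs, and 13 more mutually nearest summits lay between 200 and 250 bp. Just inside, the pair at 197 bp on chromosome 14 had 33 Smad3 and 62 Nanog tags, the pair at 194 bp on chromosome 1 had 22 and 84, and the pair at 193 bp on chromosome 4 had 22 and 73. Just outside, the summits 201 bp apart on chromosome 1 belonged to peaks with 13 Smad3 and 23 Nanog tags. A couple 202 bp apart on chromosome 14 had 15 Smad3 and 50 Nanog tags, and one at the same distance on chromosome 7 had 14 and 16. Distance hardly moved with strength: the median was 38.5 bp (32 to 44) in the lowest of 5 bins of pairs by Smad3 tags and 28 bp (23 to 35) in the highest. The rank correlation of distance was -0.10 with Smad3 tags and -0.09 with Nanog tags across the 1008 pairs.

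Places with many Nanog tags also tended to have many Smad3 tags. Across the 1008 pairs, Smad3 tags and Nanog tags had a Spearman rank correlation of 0.62. The points within a factor share 1 library, and tags go with peak width, so the value is a description with no test. With pairs ordered by Nanog tags and divided into 5 bins, the median Smad3 tag count was 18, 22, 28, 33.5 and 50, while the median Nanog tag count was 41, 75, 115, 174.5 and 296. Smad3 tags thus rose at every step. With the pairs binned by Smad3 tags instead, the medians were 16, 21, 27, 36 and 61 Smad3 tags and 60.5, 87, 110, 139 and 245 Nanog tags. A rank correlation is the same from either side, so this binning restates the association in the same pairs and is no further check.

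**Figure D2:**
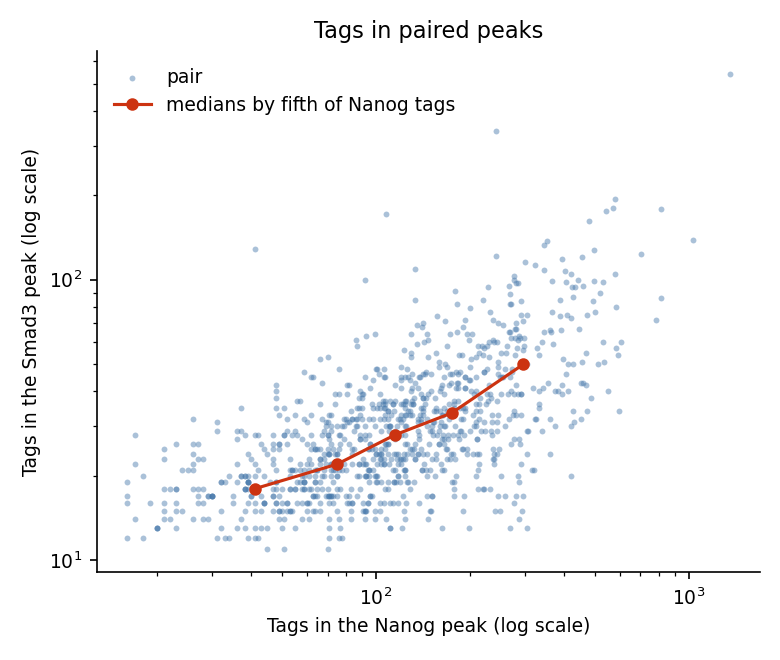
Each blue point is 1 pair, with tags in the Nanog peak on the horizontal log axis and tags in the Smad3 peak on the vertical log axis; the red line joins the medians of the 5 bins by Nanog tags. The cloud rises from medians of 18 Smad3 and 41 Nanog tags to medians of 50 and 296, with wide scatter within each bin.

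Pairs shared a bin most often at the ends of the ranking. An end bin has a neighbour on only 1 side, so the counts cannot show whether agreement was closer there. Of the 202 pairs in the highest bin of Smad3 tags, 114 were also in the highest bin of Nanog tags and 2 in the lowest. Of the 210 pairs in the lowest bin of Smad3 tags, 102 were in the lowest bin of Nanog tags and 12 in the highest. In all, 380 pairs fell into the same bin for both factors, 414 were 1 bin apart and 214 were at least 2 bins apart. Within a bin of Nanog tags the rank correlation was between 0.14 and 0.22 in the lower 4 bins and 0.37 in the highest. A bin holds only a part of the range of Nanog tags, which lowers a rank correlation by construction. These values therefore cannot show whether the agreement was weaker within a bin.

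How much of the agreement was visible depended on the measure of strength. Tags per kb of peak gave a rank correlation of 0.51, and the partial rank correlation of tags, given both widths, was 0.42. Fold enrichment gave 0.32. Smad3 tags were nearly unrelated in rank to Nanog fold, at 0.07, and Smad3 fold had a rank correlation of 0.17 with Nanog tags. Peak width moved with these values: Smad3 tags followed Smad3 width with a rank correlation of 0.83, and Nanog tags followed Nanog width with 0.65. In 5 bins of Nanog width, of 201 or 202 pairs each, the rank correlation of tags was 0.40, 0.29, 0.54, 0.55 and 0.57 from the narrowest to the widest. Width still varied within each bin.

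The rank correlation was positive on each of the 19 chromosomes, from 0.24 on chromosome 14, with 45 pairs, to 0.80 on chromosome 3, with 55 pairs. Chromosome 1 stood out in level. Its 70 pairs had medians of 37.5 Smad3 and 188 Nanog tags, against 27 Smad3 and 111 Nanog tags in the 938 pairs on chromosomes 2 to 19. Over all peaks the medians were 37 Smad3 and 32 Nanog tags on chromosome 1, against 26 Smad3 and 29 Nanog tags elsewhere.

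The ratio of Smad3 to Nanog tags varied widely between pairs. The upper quartile of the ratio was 2.09 times the lower one, and its 95th percentile was 7.26 times its 5th percentile. The tag count of Smad3 could not go below the list minimum of 11, which bounds the ratio from below in pairs with few Nanog tags.

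The pairs that were highest for both factors were named by the lower of the 2 percentiles among pairs. The first was at chr18:40467434-40468348, where Smad3 had 539 tags in 914 bp and the Nanog peak, chr18:40467610-40468068, had 1349 tags in 458 bp. That Nanog peak held the most tags of the list, yet its fold was only 28.9, and its 2945 tags per kb compare with a median of 118 over the pairs. The next pair, chr1:120971504-120973829 for Smad3 and chr1:120971289-120973974 for Nanog, had 178 Smad3 and 815 Nanog tags at 24.9-fold and 192-fold, with summits 3 bp apart. At chr1:37042536-37043398 Smad3 had 139 tags in 862 bp, inside a Nanog peak of 1032 tags that spread over 3461 bp, chr1:37042205-37045666. At chr13:66811075-66812517 there were 194 Smad3 and 579 Nanog tags at the low folds of 9.09 and 29.7. The last of the 5, chr1:13074568-13075619, had 124 Smad3 and 703 Nanog tags at 18.6-fold and 139-fold. Of these 5 pairs, 3 were on chromosome 1. All 5 Nanog peaks overlapped Tgif1 and Tgif2, and all but the one on chromosome 13 overlapped Hdac1. Over all Nanog peaks these shares were 36.5% for Tgif1, 37.5% for Tgif2 and 46.6% for Hdac1, and over the 609 paired Nanog peaks with 95 tags or more they were 82.8%, 78.7% and 92.1%, so the 5 pairs were close to other strong pairs.

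Other pairs were high for one factor and low for the other. The pair that leaned most toward Smad3 was chr18:56843611-56844315, with 129 Smad3 tags at 32.6-fold, the 98.9th percentile among pairs, over a Nanog peak of 41 tags at 7.78-fold, the 9.97th percentile. The 3 that followed had 42 Smad3 and 48 Nanog tags at chr13:96426822-96427763, 47 and 59 at chr8:114467155-114468093, and 40 and 48 at chr14:53659004-53660219. Their Smad3 peaks were wider than the median paired Nanog peak, at 941, 938 and 1215 bp. Smad3 width goes with Smad3 tags, which entered the rule that picked these pairs.

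The 4 pairs that leaned most toward Nanog had few Smad3 tags and many Nanog tags by the rule that picked them. Their Smad3 peaks were narrow and their Nanog folds high. Over the lists, Smad3 width and Nanog fold go with the tags of the same factor, with rank correlations of 0.82 and 0.55. At chr4:82076709-82077157 Smad3 had 13 tags in 448 bp, against 303 Nanog tags at 238-fold. At chr6:37639636-37640114 there were 14 Smad3 and 287 Nanog tags, with a Nanog fold of 489. The pair at chr11:71315609-71316026 had 13 Smad3 and 269 Nanog tags, with a Nanog fold of 286, and that at chr5:75348935-75349419 had 15 and 293, with a Nanog fold of 316. Their Smad3 tags were close to the list minimum of 11. The median Nanog fold over all pairs was 56.8.

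Smad3 peaks were narrower than their Nanog partners. The Smad3 member had a median width of 702.5 bp (687 to 719) and the Nanog member 927.5 bp (906 to 958). Pair by pair, Smad3 minus Nanog width had a median of -219.5 bp (-244 to -203). Smad3 was the narrower one in 843 pairs, or 83.6% (81.2 to 85.8), the wider one in 163, and 2 pairs were equal. The Smad3 peak lay wholly inside the Nanog peak in 545 pairs, and the Nanog peak wholly inside the Smad3 peak in 78. In the 19 chromosomes the narrower share was between 71.9% and 96.3%.

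The lists as wholes had the opposite order. Over all peaks on chromosomes 1 to 19 Smad3 had a median width of 691 bp and Nanog one of 634 bp. The gap within pairs grew with Nanog tags. In the 5 bins by Nanog tags the median difference was -93, -167, -225, -333.5 and -368 bp, and the share with the narrower Smad3 peak was 68.7%, 79.0%, 88.8%, 92.6% and 89.1%. By Smad3 tags the median difference showed no such course, at -215.5, -206, -218, -267 and -193 bp. Since the width of a called peak goes with its tags, and the depths of the libraries are not known, width and tag number cannot be told apart here as the source of the gap. Smad3 was precipitated with an antibody and Nanog with streptavidin beads, so factor and method cannot be told apart either.

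**Figure D3:**
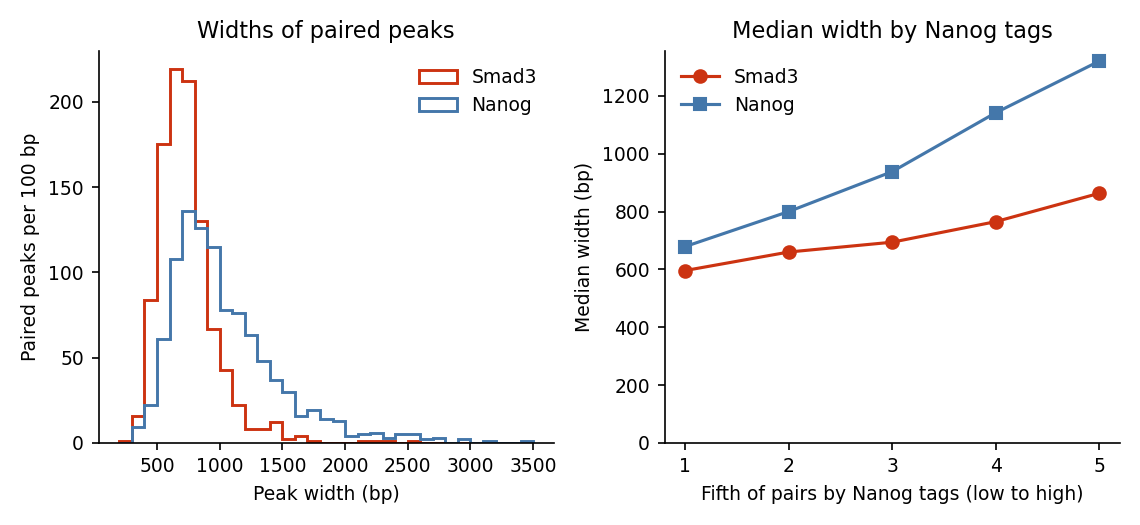
On the left, the number of paired peaks per 100 bp is plotted against peak width in bp, in red for Smad3 and in blue for Nanog; on the right, the median width in bp is plotted for the 5 bins of pairs by Nanog tags. Smad3 widths gather around the median of 702.5 bp while Nanog widths reach farther to the right, and the lines part from medians of 596 bp for Smad3 and 679 bp for Nanog in the lowest bin to 863 and 1320 bp in the highest.

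The paired Nanog peaks stood near the top of the Nanog list by tags. Their median percentile was 92.8 (92.1 to 93.6), where 100 is the peak with the most tags and the list as a whole has 50, and the lower quartile was 83.6. Paired Nanog peaks had a median of 115 tags (108 to 123), against 28 in the 15825 Nanog peaks without a partner. They also had a median fold of 56.8, against 22.2, and a median width of 927.5 bp, against 623 bp. By fold the median percentile was lower, at 87.0, and by tags per kb it was 91.2.

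The share of Nanog peaks with a partner climbed steeply at the top of the list. In deciles of the list from low to high tags, it stayed at or below 1.22% in the lower 6, each with at most 35 tags. It was then 2.87% in the seventh decile, 5.12% in the eighth and 11.7% (10.3 to 13.4) in the ninth, against 5.99% over the whole list. In the decile with the most tags, 95 to 1349, it was 36.4% (34.1 to 38.7), or 609 of 1673 peaks. That decile held 60.4% of all pairs. Of the 10 Nanog peaks with the most tags 9 were paired, of the first 100 it was 76, of the first 500 it was 278 and of the first 1000 it was 445.

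**Figure D4:**
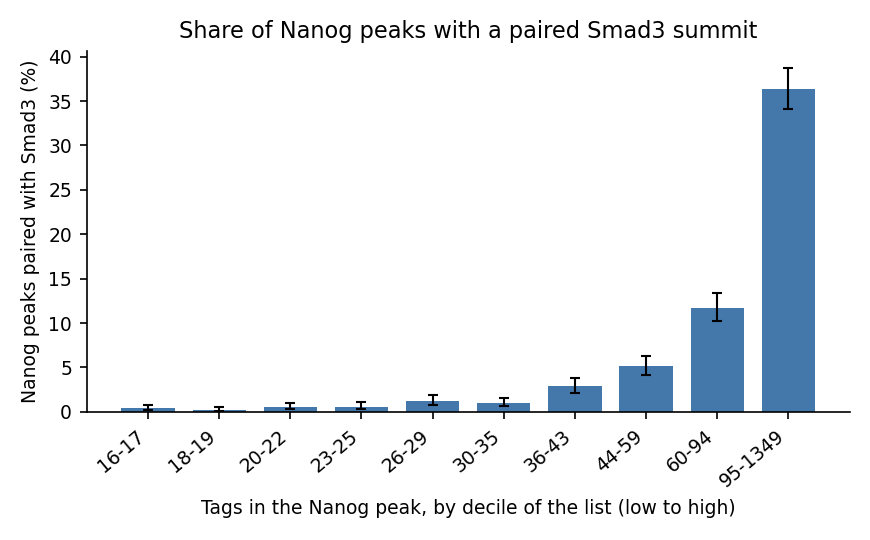
Bars give the percentage of Nanog peaks with a paired Smad3 summit in each decile of the Nanog list, labelled with its range of tags from low on the left to high on the right, and whiskers are 95% Wilson intervals. The bars stay near 0 in the lower deciles and reach 11.7% and 36.4% in the highest pair of deciles.

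Ranking by fold gave a flatter climb. Of the 10 Nanog peaks with the highest fold 4 were paired, and of the first 100 it was 50, against 76 by tags. The decile with the highest fold was paired in 25.7% (23.6 to 27.8), and the decile below it in 12.4%. Among the strongest decile by tags, the paired share was 32.3% (28.5 to 36.2) in the third with the lowest fold, 35.5% in the middle one and 41.5% (37.5 to 45.6) in the third with the highest, and these had medians of 123, 139 and 177 tags.

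The climb was also present within bins of peak width. Nanog peaks were divided into 5 bins of width, and each bin at its own median of tags. In the narrowest bin, 201 to 488 bp, a partner was found for 1.56% of peaks above the median of tags and 0.117% of those at or below it. In the middle bin, 586 to 688 bp, the shares were 5.68% (4.66 to 6.90) and 0.812% (0.484 to 1.36). In the widest, 857 to 3461 bp, they were 32.9% (30.7 to 35.2) and 3.13% (2.40 to 4.08). In all 5 bins the intervals of the upper and the lower side did not overlap. Width still varied within a bin, most of all in the widest. Nanog tags followed width over the list with a rank correlation of 0.64, and the part of width within bins was not tested.

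At the other end, 49 pairs had a Nanog peak at or below the median of the list by tags. Their Nanog peaks held 16 to 29 tags, with a median of 23, and their Smad3 peaks held 12 to 32 tags, with a median of 17. Here Smad3 was the wider peak in 27 of 49 pairs, with median widths of 588 bp for Smad3 and 580 bp for Nanog.

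Many strong Nanog peaks nevertheless had no Smad3 peak, and how many depended on where the line was drawn. Of the 1673 Nanog peaks with 95 tags or more, 1022 had neither an overlapping Smad3 peak nor a Smad3 summit within 200 bp, which is 61.1% (58.7 to 63.4). A further 42 were near Smad3 without being paired. In the top 5% of the list by tags the share without Smad3 was 49.1%, and of the first 500 Nanog peaks 297, and of the first 100 peaks 82, had a Smad3 peak overlapping or a summit within 200 bp, so the peaks with the most tags of all mostly had Smad3. Of the 1022, 3 had a Smad3 summit within 1 kb and 72 had one within 10 kb. The definition had already removed peaks with an overlapping Smad3 peak or a Smad3 summit within 200 bp, which keeps the first count low. The median distance to the nearest Smad3 summit was 391764 bp, against 350486 bp over all Nanog peaks. All Nanog peaks include the paired ones, which the definition kept out of the 1022, so these medians differ partly by construction. As the Smad3 list has a minimum of 11 tags, a weaker Smad3 signal at these places was not detectable, and absence from the list does not show absence of binding.

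The strongest of them was chr2:33435369-33438040, which ranked 10 in the Nanog list with 588 tags at 598-fold over 2671 bp, and whose nearest Smad3 summit was 672176 bp away. It was the only one of the first 10 Nanog peaks by tags without Smad3. Next came chr1:120945381-120947207 with 528 tags at 109-fold, which lies 26980 bp from a Smad3 summit. The others among the first 5 were chr19:38422114-38424073 with 499 tags, chr7:137407220-137408964 with 494 tags at 367-fold, and chr5:118894346-118896516 with 467 tags at 60.1-fold. The one on chromosome 7 had a Smad3 summit 12401 bp away and the one on chromosome 5 had one 7353 bp away. All 5 overlapped Tgif1, Tgif2 and Hdac1, as did 47.0% of the 1022 strong Nanog peaks without Smad3 and 24.9% of all Nanog peaks.

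Within the strongest decile, paired Nanog peaks still had more tags than those without Smad3. The median was 174 tags (164 to 183) in the 609 paired peaks and 129 (127 to 133) in the 1022 without. The paired ones were wider, at 1123 bp (1091 to 1159) against 981 bp (956 to 1001), and their fold was 77.7 (71.3 to 83.4) against 66.6 (64.9 to 69.8). Another Nanog summit lay within 10 kb of 63.2% (59.3 to 67.0) of the paired peaks and of 50.3% (47.2 to 53.4) of those without Smad3, against 44.7% of all Nanog peaks.

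Tgif1, Tgif2 and Hdac1 were found more often at the strong Nanog peaks that had Smad3. Tgif1 overlapped 82.8% (79.6 to 85.6) of the 609 paired peaks and 62.6% (59.6 to 65.5) of the 1022 without Smad3, where it overlapped 36.5% of all Nanog peaks. Tgif2 overlapped 78.7% (75.2 to 81.7) of the paired peaks and 61.3% (58.2 to 64.2) of those without, against 37.5% of all. Hdac1 overlapped 92.1% (89.7 to 94.0) of the paired peaks and 76.9% (74.2 to 79.4) of those without, against 46.6% of all. The differences, paired minus without, were 20.1 percentage points for Tgif1 (15.8 to 24.2), 17.4 for Tgif2 (12.9 to 21.7) and 15.2 for Hdac1 (11.7 to 18.5). The paired share was the higher one on 19 of 19 chromosomes for Tgif1 and Tgif2 and on 18 of 19 for Hdac1. With the strongest decile taken by fold, which also lets in peaks with few tags, the differences were 40.3 points for Tgif1, 34.5 for Tgif2 and 34.9 for Hdac1, and with lists limited to the median fold or higher the Tgif1 difference was 12.9 points (5.42 to 20.3). All 3 were present at 72.1% of the paired peaks and 47.0% of those without, and none of them at 3.78% and 13.8%.

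**Figure D5:**
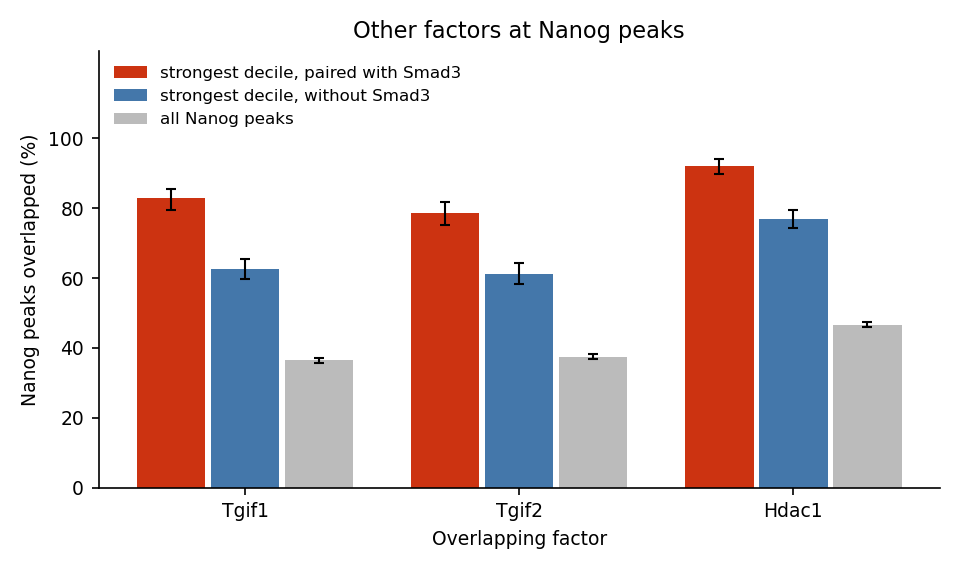
Bars give the percentage of Nanog peaks overlapped by at least 1 bp by Tgif1, Tgif2 or Hdac1, for the strongest decile paired with Smad3 (red), the strongest decile without Smad3 (blue) and all Nanog peaks (grey), and whiskers are 95% Wilson intervals. For each factor the red bar stands above the blue one and both above the grey one, at 92.1%, 76.9% and 46.6% for Hdac1.

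Because the paired peaks held more tags, the comparison was repeated in 3 bands of Nanog tags. Between 95 and 121 tags the medians were 107 tags in the 131 paired peaks and 106 in the 434 without, with median widths of 917 and 905 bp and median folds of 56.7 and 57.0. There Hdac1 overlapped 93.1% of the paired peaks and 74.4% of those without, a difference of 18.7 points (11.8 to 24.1). Tgif1 differed by 12.2 points (2.68 to 20.7), and the Tgif2 difference of 8.75 points had an interval that reached below 0 (-0.945 to 17.8). Between 122 and 174 tags the differences were 23.0 points for Tgif1 (15.0 to 30.1), 17.0 for Tgif2 (8.85 to 24.4) and 16.3 for Hdac1 (9.80 to 22.0). From 175 tags up they were 12.9 for Tgif1 (6.35 to 19.6), 13.5 for Tgif2 (6.48 to 20.7) and 8.42 for Hdac1 (2.83 to 14.3). In the middle band the medians were 141 tags and 1062 bp for the paired peaks and 139 tags and 992.5 bp for those without. In the highest band they were 264 tags and 1265 bp for the paired peaks and 224.5 tags and 1178 bp for those without, so that band was not matched on tags. The part of width, and in the highest band of tags, in these differences was not tested.

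Across all 1008 pairs the Nanog peak overlapped Hdac1 in 896 cases, or 88.9%, Tgif1 in 753, or 74.7%, and Tgif2 in 703, or 69.7%, against 46.6%, 36.5% and 37.5% of all Nanog peaks in the same order. These shares went up with Smad3 tags. From the lowest to the highest of 5 bins by Smad3 tags, Tgif1 was at 47.6%, 68.4%, 78.9%, 85.9% and 92.6% of pairs, and Tgif2 at 40.5%, 65.0%, 71.8%, 81.6% and 90.1%. Hdac1 was already at 75.2% of pairs in the lowest bin, reached 96.1% in the fourth and was at 92.1% in the highest. From the lowest to the highest of these bins the Nanog peaks also rose, from medians of 60.5 to 245 tags and of 734.5 to 1257.5 bp. The part of Nanog tags and width in the rise of the shares was not tested. Pairs with Tgif1 had medians of 30 Smad3 and 130 Nanog tags, and pairs without it 20 and 73. The rank correlation of Smad3 with Nanog tags was 0.59 in the 753 pairs with Tgif1 and 0.50 in the 255 without it, and 0.61 in the 703 pairs with Tgif2 and 0.49 in the 305 without it. For Hdac1 the order was the opposite, with 0.59 in the 896 pairs with it and 0.67 in the 112 without it. These rank correlations are given without intervals, and whether they differ beyond counting error was not tested. Seen from the Smad3 peaks, Hdac1 overlapped 88.7% of the 1008 paired and 47.6% of the 191 unpaired ones. Together these are all 1199 Smad3 peaks on chromosomes 1 to 19. Tgif1 overlapped 74.1% of the paired and 39.8% of the unpaired ones, and Tgif2 69.3% and 39.8%. Among the unpaired ones Hdac1 overlapped 62 of the 76 that touched a Nanog peak and 29 of the 115 that did not. For Tgif1 these counts were 54 and 22, and for Tgif2 they were 52 and 24.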

How the data were processed

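Peak lists of Smad3 and Nanog ChIP-seq libraries were compared, with those of Tgif1, Tgif2 and Hdac1 as further readouts. Per the submitters' processing notes, BWA 0.5.9-r16 and MACS were used with the mm9 build; settings, the control of each call and its threshold are not given in the sources used here. The deposited lists have no header. A whole number per peak was read as the count of tags, and a number with 2 decimals as the fold, the ratio of the peak to its background by the authors' caller. Both are the authors' values. The last 3 columns were equal in every peak and taken as the summit. Coordinates are printed as deposited, and the start may be 1 bp off. Regions carry no gene name or sequence, since no mm9 annotation or genome was used here.

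Lists were limited to chromosomes 1 to 19, which left out 27 Smad3 and 439 Nanog peaks, and mutually nearest summits at most 200 bp apart were paired. Bins are by rank, with tied values in the same bin. Overlap means at least 1 bp. Differences of shares have Newcombe intervals. With 1 library per factor no test was run. Named regions followed a fixed rule: the 5 pairs with the highest lower percentile by tags, the 4 leaning most to either factor, the 3 nearest the limit on each side and the 5 strongest Nanog peaks without Smad3. The members, lists and comparisons were chosen with earlier results of these data known. The alternatives were other limits, midpoints, overlap, chromosomes, stricter lists and other rankings. Pairing was tested on simulated data. Python 3.11.15, NumPy 2.4.6, pandas 2.3.3, SciPy 1.17.1 and matplotlib 3.10.9 were used.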

Additional observations from a re-analysis of the deposited data

How the results depend on the processing

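No alternative changed the sign of the rank agreement, the width difference or the differences for other factors, but strong Nanog peaks without Smad3 were no longer the majority in the top 5% of the list. The paired share, rank agreement, width difference, place in the Nanog list and strong peaks without Smad3 were held against their main intervals. For these, 22 alternative values moved outside the main interval. The differences for other factors were judged only by whether their interval stayed above 0, and all did. The 43 values counted as unmoved pool both rules, so they overstate how many stayed within the main interval. Ranked by fold, the Tgif1 difference of 40.3 points lay outside its main interval of 15.8 to 24.2 and was still among the 43. The paired share of Smad3 peaks was 76.5% with summits within 100 bp, 87.4% within 500 bp, 72.5% with peak midpoints, 89.2% with overlapping peaks at any distance, 80.4% in lists limited to the median fold or higher and 75.3% without the 1% of peaks with most tags, which removes strong Nanog partners. The rank correlation of tags was 0.70 at or above the median fold, 0.55 without the 1% with most tags, 0.51 by tags per kb, 0.32 by fold and 0.42 given both widths. The width difference was -179 bp with midpoints. The median percentile was 89.4 at or above the median fold, 87.0 by fold and 91.2 by tags per kb. The share of strong Nanog peaks without Smad3 was 70.3% at or above the median fold, 66.5% without the 1% with most tags, 73.4% ranked by fold, 66.5% by tags per kb, 49.1% in the top 5%, 74.6% in the top 20% and 56.8% with no Smad3 summit within 10 kb. The differences for Tgif1, Tgif2 and Hdac1, paired minus without Smad3, stayed above 0 in each setting run, from 12.9 points for Tgif1 in lists of the median fold or higher to 40.3 points for Tgif1 when ranked by fold. The cause of these moves was not tested beyond what each setting does by construction. Of the 13 named pairs, 7 were formed at or above the median fold and 6 without the 1% with most tags, against 10 to 13 in the other settings. No paired analysis was possible because each factor had 1 library. The Smad3 minimum of 11 tags limits what absence of a Smad3 peak can show.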
